A study of Mus musculus with 9 samples.

Results

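The genes described here are 32 genes of the complement, coagulation and fibrinolysis systems in mouse lung, chosen by their symbols from the 21930 genes of the count table. They fall into 17 complement genes, 12 clotting genes and 3 fibrinolysis genes. Lung RNA was sequenced from 9 libraries of male C57BL/6 mice aged 6 to 8 weeks, in 3 groups of 3. The LPS plus RSBD mice received lipopolysaccharide (LPS, a bacterial cell wall component that injures the lung) into the trachea at 2 mg per kg and then daily gavages of Renshen Baidu Powder (RSBD), a herbal formula given as a decoction, on 5 days in a row. The LPS mice received the same instillation with a vehicle gavage, and the control mice received sterile saline in its place, likewise with vehicle. All mice had tribromoethanol anaesthesia, and all lungs were taken on day 5 after the instillation. LPS against control asks what the injury did to these genes, and LPS plus RSBD against LPS asks what the decoction did. The labels number the replicates but do not say that each is a separate animal, so p-values measure only the spread between these libraries.

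Total counts per library ranged from 26959662 to 36113905. Transcripts of lung epithelium were abundant throughout, with *Sftpc* (surfactant protein C) averaging 8939 ± 1523 CPM (reads scaled to a common library size) in LPS plus RSBD lungs, 9152 ± 2395 in LPS lungs and 8304 ± 1062 in control lungs (SD, n = 3 each). Reads on chromosome Y numbered 7511 to 10918 in each LPS and LPS plus RSBD library but 6 to 9 in each control library, although the labels call every mouse male. Every comparison with control below is therefore also one between libraries with and without Y transcripts, and the treatment and this difference cannot be told apart there. LPS plus RSBD against LPS is free of this difference.

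Complement is a cascade of plasma proteases and membrane proteins that tags microbes and damaged cells. C1r and C1s (classical pathway) and MASP-1 (lectin pathway) start it, C2, C4 and factor B build the convertases that cleave C3, and C5b to C9 assemble a pore in the target membrane. The split products C3a and C5a recruit and activate leukocytes through their receptors, while C1 inhibitor, factor I, CD55 and CD59 hold the cascade back. Coagulation starts when tissue factor meets factor VII, runs through factors X and V to thrombin, and ends in a fibrin mesh made from fibrinogen, a protein of α, β and γ chains. Plasmin, made from plasminogen by its tissue and urokinase activators, dissolves that mesh. Most of these plasma proteins come from the liver, but lung epithelium, endothelium and macrophages make several of them, and fibrin in the air spaces is a known feature of acute lung injury.

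The 250 bases before the transcription start are shown for 3 genes that lead the results, the fibrinogen γ and α chains and *C7*, because they changed most or held up best against control. The sequences are from RefSeq on GRCm38.p6 and run 5′ to 3′ on the gene's own strand, with capitals marking matches to the motifs named after them. *Fgg* lies on the plus strand at chr3:83007474-83007723, *Fga* on the plus strand at chr3:83025903-83026152, and *C7* on the minus strand at chr15:5063774-5064023. For 2 of these 3 genes the RefSeq start is not that of the counted gene. The *Fga* stretch runs past 83026076, where the counted gene begins, and the *C7* stretch does not reach its gene's end at 5063740.
Fgg: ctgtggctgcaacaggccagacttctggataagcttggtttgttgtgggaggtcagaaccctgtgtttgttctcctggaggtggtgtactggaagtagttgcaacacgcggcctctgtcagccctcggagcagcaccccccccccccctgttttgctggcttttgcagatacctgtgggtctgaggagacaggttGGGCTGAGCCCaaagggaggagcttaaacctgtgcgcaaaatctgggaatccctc
Fga: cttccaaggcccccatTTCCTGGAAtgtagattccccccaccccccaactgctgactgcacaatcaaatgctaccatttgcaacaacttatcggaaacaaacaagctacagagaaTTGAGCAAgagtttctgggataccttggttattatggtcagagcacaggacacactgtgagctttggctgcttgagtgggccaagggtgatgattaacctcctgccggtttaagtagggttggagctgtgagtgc
C7: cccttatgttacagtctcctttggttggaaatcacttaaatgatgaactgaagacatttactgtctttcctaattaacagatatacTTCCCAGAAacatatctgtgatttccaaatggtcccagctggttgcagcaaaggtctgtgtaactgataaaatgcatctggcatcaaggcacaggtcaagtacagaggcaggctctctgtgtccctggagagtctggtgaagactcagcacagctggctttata

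Several motifs were searched on both strands in the promoters of the table: TTCNNNGAA (STAT), TTGCNNAA (C/EBP), GGG and CC 5 bases apart (kappa B), GTTAAT and ATT 1 base apart (HNF1), and GAAA repeated after 2 bases (interferon response). Of the 32 genes, 23 had a promoter in the table, with 27 promoters between them. The *C7* promoter held 1 STAT match, TTCCCAGAA, at -164 to -156 from the start, and the *Fga* promoter held another, TTCCTGGAA, at -234 to -226. The STAT pattern occurred in 4 of the 23 genes (*C7*, *Fga*, *Fgb*, *Pros1*) and in 7.02% of the 32841 promoters of the table. *Fga* also held a C/EBP match on the opposite strand, at -135 to -128, a pattern present in 7 of the 23 genes and in 9.57% of all promoters. The capitals in *Fgg* are overlapping kappa B matches on both strands, at -55 to -45. That pattern occurred in 15 of the 23 genes (15 of their 27 promoters) and in 45.8% of all promoters. No HNF1 match was found in the 23 genes, against 0.371% of all promoters, and *Cd59a* alone held the interferon pattern, present in 2.98% of all promoters.

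LPS lungs differed from control lungs in a few clotting genes and in 1 complement gene. The fibrinogen chains *Fgg* and *Fga* and tissue factor (*F3*) fell, while factor X (*F10*) and the pore component *C7* rose. *Fgb* was listed at 0 reads in all 9 libraries and was not tested, so 31 of the 32 genes were tested. Of these 31, 5 passed an adjusted p of 0.05 in edgeR's quasi-likelihood test (Benjamini-Hochberg, adjusted over the 15636 genes that passed the count filter), which is 16.1% of them against 17.4% of all genes. The 2 that rose compare with 8.79% of all genes higher, and the 3 that fell with 8.63% lower, so the share of changed genes was near the background. The 3 LPS libraries did not overlap the 3 control libraries for 9 of the 31 genes (29%), against 38% of all genes: *C7*, *Masp1*, *F10*, *Tfpi* and *Plaur* were above control, and *C6*, *Fga*, *Fgg* and *F3* were below it. The median log2 fold change was 0.09 over the 31 genes and -0.01 over all genes. In bulk tissue, fewer cells of a type and less RNA per cell cannot be told apart.

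In LPS plus RSBD against LPS, 0 of the 31 genes passed this test, as did 0% of all genes. At an unadjusted p of 0.05, 5 of the 31 genes (*Fgg*, *Cd55*, *Fga*, *Plaur* and *F10*) were below the threshold, which is 16.1% against 9.42% of all genes, and DESeq2 called 1 of them, *Fgg*. Libraries of the 2 groups did not overlap for 4 genes (12.9%, against 12.6% of all genes): *Fgg*, *F3* and *Cd55* were higher and *Thbd* was lower in LPS plus RSBD lungs. Against control, LPS plus RSBD lungs differed in 1 gene, *C7*, which is 3.23% of the 31 genes, against 3.7% of all genes called and 1.89% called higher. Groups did not overlap for 7 genes in that comparison (22.6%, against 30.4% of all genes). The 2 comparisons with control share the control libraries, and the 2 that involve LPS share the LPS libraries, so their values below are not independent.

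**Figure D1:**
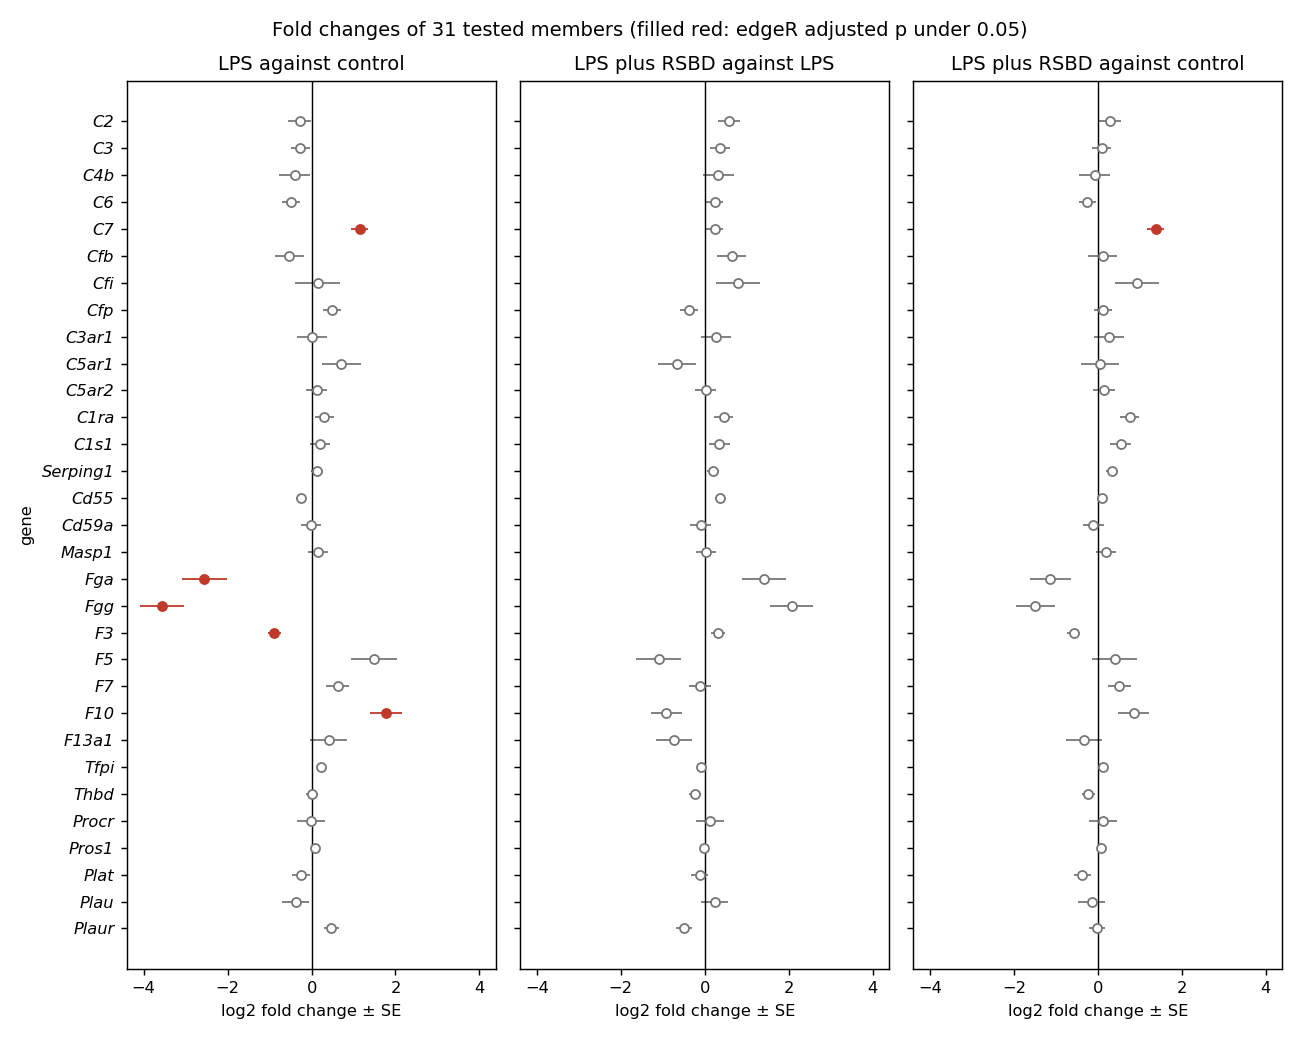
Log2 fold change (x axis, with SE bars) of the 31 tested genes (rows) in the 3 comparisons, from edgeR's fit over 9 libraries. Filled red points passed an adjusted p of 0.05: *C7*, *Fga*, *Fgg*, *F3* and *F10* in LPS against control, none in LPS plus RSBD against LPS, and *C7* in LPS plus RSBD against control.

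Measured per transcript length (TPM), the most abundant of these transcripts over the 9 libraries was thrombomodulin (*Thbd*, mean 356 TPM), ahead of C1 inhibitor (*Serping1*, 306 TPM) and *C3* (251 TPM). *Thbd* averaged 312 ± 19.9 TPM in LPS plus RSBD lungs, 369 ± 69.2 TPM in LPS lungs and 386 ± 65.2 TPM in control lungs, and *Serping1* averaged 338 ± 74.9, 293 ± 36.4 and 287 ± 20.2 TPM in the same groups (SD, n = 3 each). *Thbd* was above *Serping1* in every LPS and control library, while in LPS plus RSBD libraries the ranges of both genes overlapped. A middle range ran from *C1s1* (91.2 TPM) and *C7* (88.7 TPM) through *Pros1* (68.8), *Plaur* (67.0) and *Cd55* (60.3 TPM) to *F3* (50.1 TPM). At the low end stood *C2* (4.58 TPM), *Fga* (2.42 TPM), *Masp1* (1.78 TPM) and *Cfi* (0.709 TPM), above *Fgb* at 0. The lung transcript of C5, *Hc*, which was not among the 32 genes, averaged 227 TPM over the 9 libraries (159 to 369 TPM), below *C3*. Among transcripts of the later pore proteins, *C8a*, *C8b* and *C9* were listed at 0, while *C8g* averaged 4.34 TPM, with 48 to 93 reads per library.

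**Figure D2:**
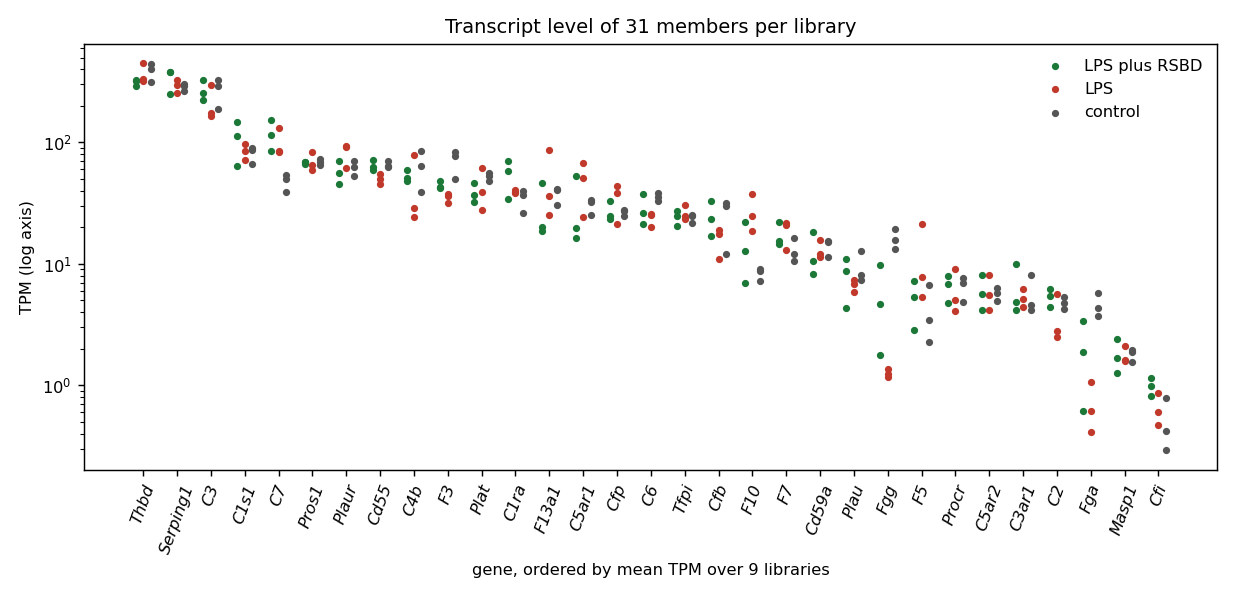
Level per transcript length (TPM, log axis) of the 31 genes with reads in each of the 9 libraries, ordered by the mean over all libraries; each point is 1 library, coloured by group. *Thbd*, *Serping1* and *C3* lead at means of 251 to 356 TPM, and the LPS and control points of *Fgg* and *Fga* do not overlap.

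Among complement genes, 1 of 17 rose in LPS lungs against control, none fell, and 16 did not pass the test. That is 5.88% of the 17 genes, against 17.4% of all genes, and this difference in share was not tested. The one that rose was *C7* (chr15:4988762-5063740, GRCm38, minus strand), which encodes the component that inserts the growing pore into the membrane. It was at 236, 180.1 and 134 CPM in LPS plus RSBD libraries 1 to 3, at 186, 138 and 143 CPM in LPS libraries and at 60.4, 77.9 and 72.9 CPM in control libraries. Every LPS and LPS plus RSBD library was above every control library, and both LPS groups overlapped each other. The log2 fold change was 1.14 ± 0.20 (SE; 2.21-fold; adjusted p = 0.00915, edgeR) for LPS against control and 1.38 ± 0.20 (2.60-fold; adjusted p = 0.0136) for LPS plus RSBD against control. For LPS plus RSBD against LPS it was 0.24 ± 0.20 (adjusted p = 0.756). The call against control for LPS lungs was kept in all 16 alternative settings, and that for LPS plus RSBD lungs was lost without control library 3 (adjusted p = 0.0517, the highest of its 16 alternatives). Summed levels of 8 fibroblast markers ran from 756 to 1727 CPM in LPS plus RSBD, from 1138 to 1248 CPM in LPS and from 942 to 1155 CPM in control libraries, with no marker at 0 throughout, and 0 of 8 were called in LPS against control and 1 of 8 higher in LPS plus RSBD against control. The natural killer cell markers, 4 of 4 of which rose against control in both LPS groups, summed to 36.1 to 52.3, 24.7 to 41.2 and 8.08 to 12.7 CPM in the same order of groups. Erythroid markers summed to 2924 to 5872, 2940 to 5359 and 350 to 2782 CPM. Of these, 4 of 4 had positive fold changes against control in both LPS groups and 0 were called. The part of these cells in the *C7* result was not tested.

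*C6*, the pore component that binds before *C7* and whose gene lies near it on chromosome 15, did not pass the test and had a fold change of the opposite sign. It was at 60.0, 35.8 and 42.3 CPM in LPS plus RSBD libraries, at 28.9, 43.7 and 44.3 CPM in LPS libraries and at 52.3, 58.6 and 53.6 CPM in control libraries. The 3 LPS libraries were all below the 3 control libraries, with a log2 fold change of -0.49 ± 0.21 (adjusted p = 0.122, edgeR).

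Genes that start the cascade did not pass the test in any comparison. *C1ra* (the protease C1r) was at 100.2, 123 and 60.5 CPM in LPS plus RSBD libraries, at 61.6, 70.4 and 75.5 CPM in LPS libraries and at 45.2, 63.1 and 59.3 CPM in control libraries. LPS plus RSBD libraries 1 and 2 were the highest of all and library 3 was among the control values; against control the log2 fold change was 0.76 ± 0.23 (adjusted p = 0.102, edgeR), which DESeq2 called (adjusted p = 0.0146; 0.0146 to 0.270 over the 16 alternatives). *C1s1* (C1s) had the same order over the LPS plus RSBD libraries, at 185, 242 and 106 CPM in LPS plus RSBD, 143, 125 and 150.3 CPM in LPS and 105, 128 and 131 CPM in control libraries. Their inhibitor *Serping1* was at 363, 381 and 253 CPM in LPS plus RSBD, 291, 264 and 309.9 CPM in LPS and 259, 272 and 263 CPM in control libraries. Without LPS plus RSBD library 3, all of *C1ra*, *C1s1* and *Serping1* were called higher against control, alongside *C7*. The count of complement genes called in that comparison went to 4 of 17, against 562 of 15803 genes tested in that setting (337 of them higher), and this difference in share was not tested. That library also had the lowest summed fibroblast markers, at 756 CPM against 1423 and 1727 CPM in the other LPS plus RSBD libraries, and the part of fibroblasts in these values was not tested. *C1ra* and *C1s1* have near-identical copies (*C1rb*, *C1s2*), so the split of reads between copies is uncertain. The lectin pathway protease *Masp1* was low, between 2.84 and 5.13 CPM in all libraries.

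The components that form the C3 convertases and *C3* itself were spread widely within groups. *C3* was at 755, 990.1 and 679 CPM in LPS plus RSBD libraries, at 809, 546 and 528 CPM in LPS libraries and at 553, 907 and 812 CPM in control libraries, with a log2 fold change of -0.27 ± 0.23 (adjusted p = 0.431, edgeR) for LPS against control. Groups overlapped for it. *C4b* (C4) ranged from 139 to 182 CPM in LPS plus RSBD, from 75.9 to 211 CPM in LPS and from 112 to 220.2 CPM in control libraries, and was called lower in LPS lungs without LPS library 1, the highest of its group. *C4b* has a near-identical copy, *C4a*, and no gene of that symbol was listed among the counts. *C2* (the classical convertase protease) and *Cfb* (factor B of the alternative pathway) are neighbours that share a read-through transcript model, so reads between them are uncertain. *C2* averaged 7.59 ± 1.24 CPM in LPS plus RSBD, 5.12 ± 2.00 CPM in LPS and 6.22 ± 0.808 CPM in control lungs (SD, n = 3 each), and *Cfb* ranged from 27.7 to 52.2 CPM against 19.0 to 29.4 in LPS and 18.7 to 46.4 CPM in control libraries. Neither passed the test in any comparison.

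Regulators of the alternative pathway and of the host cell surface did not pass the test in any comparison either. Properdin (*Cfp*), which stabilises the alternative convertase, was at 21.1, 22.8 and 30.8 CPM in LPS plus RSBD, 37.1, 38.2 and 21.3 CPM in LPS and 24.1, 21.1 and 23.4 CPM in control libraries, and was called higher in LPS lungs only when LPS library 3 was left out, of the 16 alternatives run. Factor I (*Cfi*), which inactivates C3b, had 8 to 39 reads per library. *Cd55*, which takes convertases apart on the body's own cells, was at 102, 85.8 and 92.4 CPM in LPS plus RSBD libraries, at 64.6, 68.6 and 85.6 CPM in LPS libraries and at 86.6, 92.1 and 83.0 CPM in control libraries. All LPS plus RSBD libraries were above all LPS libraries, narrowly at the closest, while LPS and control overlapped. Its log2 fold change was 0.36 ± 0.11 for LPS plus RSBD against LPS (adjusted p = 0.408, edgeR) and -0.26 ± 0.11 for LPS against control (adjusted p = 0.135), which was called by limma at both pseudocounts and without LPS library 3. *Cd59a*, which blocks pore assembly, ranged from 8.47 to 17.2 CPM over all libraries, with log2 fold changes of -0.01 ± 0.24 for LPS against control and -0.10 ± 0.24 for LPS plus RSBD against LPS. *Cd55* and *Cd59a* each have a related gene in the mouse genome. These were counted apart, *Cd55b* at 1.13 to 1.86 CPM and *Cd59b* at 0.142 to 1.82 CPM over all libraries.

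The receptors of the split products C3a and C5a did not pass the test in any comparison, and *C5ar1* was high in libraries of 2 groups. The C5a receptor *C5ar1* was at 23.8, 29.3 and 79.6 CPM in LPS plus RSBD libraries, at 90.3, 79.7 and 38.4 CPM in LPS libraries and at 47.0, 34.5 and 45.7 CPM in control libraries. High values stood in LPS libraries 1 and 2 and in LPS plus RSBD library 3, and the log2 fold change was 0.71 ± 0.46 (adjusted p = 0.298, edgeR) for LPS against control and -0.65 ± 0.45 (adjusted p = 0.695) for LPS plus RSBD against LPS. The same 3 libraries held the highest sums of 11 neutrophil markers, 7708 and 7065 CPM in LPS libraries 1 and 2 and 3520 CPM in LPS plus RSBD library 3, against 761 to 2734 CPM in the other 6; no marker was at 0 throughout, and the part of neutrophils in the *C5ar1* values was not tested. The second C5a receptor *C5ar2* ranged from 8.62 to 16.4 CPM and the C3a receptor *C3ar1* from 10.3 to 25.3 CPM over all libraries, with overlapping groups in each comparison.

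**Figure D3:**
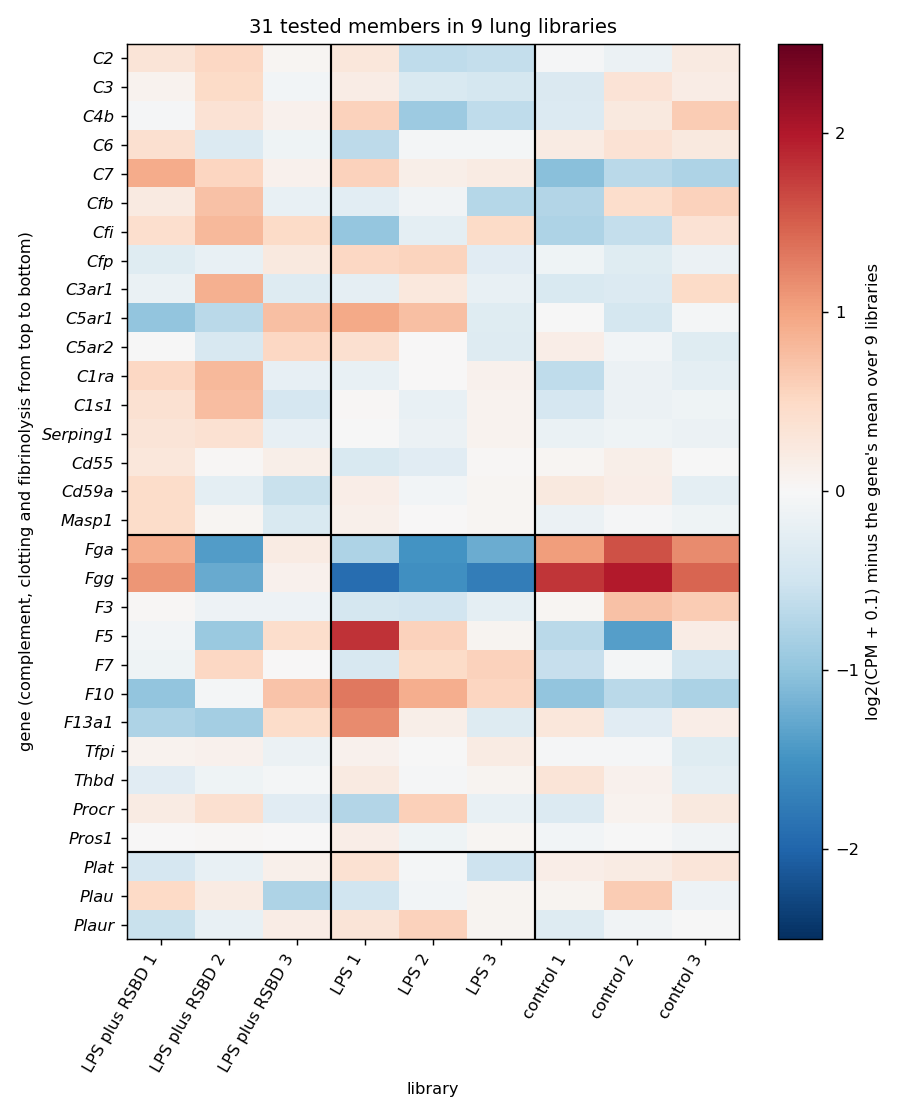
Level of each of the 31 tested genes (rows) in each of the 9 libraries (columns), as log2(CPM + 0.1) minus the gene's own mean; horizontal lines separate complement, clotting and fibrinolysis. *Fga* and *Fgg* are low (blue) in the 3 LPS libraries and in LPS plus RSBD library 2 and high (red) in control, and *C7* is low in control only, among the 3 groups.

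Clotting genes held 4 of the 5 calls in LPS against control: 1 of 11 rose, 3 fell and 7 did not pass the test. That is 36.4% of the 11 genes, against 17.4% of all genes, and this difference in share was not tested. Fibrinogen transcripts were those with the largest fold changes among the 31 tested, at low levels. *Fgg*, the γ chain (chr3:83007724-83015049, GRCm38, plus strand), was at 9.68, 1.81 and 4.80 CPM in LPS plus RSBD libraries, at 1.11, 1.47 and 1.27 CPM in LPS libraries and at 15.6, 18.0 and 12.3 CPM in control libraries, from 30 to 565 reads. The 3 groups did not overlap one another, LPS plus RSBD lying between, and library 2 of LPS plus RSBD was close to the LPS values. *Fgg* fell by 3.57 ± 0.53 on the log2 scale in LPS against control (to 0.0845 times; adjusted p = 0.00557, edgeR), a call kept in all 16 alternative settings. In LPS plus RSBD against LPS the log2 fold change was 2.08 ± 0.51 (4.22-fold; adjusted p = 0.363, edgeR), with 3 of 3 libraries above every LPS library, and DESeq2 called it (adjusted p = 0.00321; 0.00321 to 0.858 over the 16 alternatives). Against control, LPS plus RSBD lungs were at -1.49 ± 0.47 (adjusted p = 0.105), called by DESeq2 (adjusted p = 0.0114; 0.0114 to 0.238 over the alternatives) and without LPS plus RSBD library 1. Per length, *Fgg* averaged 5.40 ± 4.03 TPM in LPS plus RSBD, 1.25 ± 0.0892 TPM in LPS and 16.2 ± 3.18 TPM in control lungs (SD, n = 3 each). The gene overlaps a long non-coding RNA model, *Gm30097*, on the opposite strand; libraries were strand-specific per the labels, and the strand setting used in counting is not given.

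The α chain gene *Fga* (chr3:83026076-83033627, plus strand), a neighbour of *Fgg*, ran in the same direction. It was at 4.03, 0.742 and 2.44 CPM in LPS plus RSBD libraries, at 1.19, 0.686 and 0.836 CPM in LPS libraries and at 4.43, 6.53 and 4.95 CPM in control libraries, from 21 to 205 reads. LPS and control did not overlap, while LPS plus RSBD library 2 was within the LPS values and libraries 1 and 3 were above them. *Fga* fell by 2.55 ± 0.53 on the log2 scale in LPS against control (to 0.170 times; adjusted p = 0.0134, edgeR), a call lost without LPS library 2 (adjusted p = 0.0629, the highest of 16 alternatives) or without control library 2. LPS plus RSBD against LPS gave a 2.67-fold difference (SE 0.52 on the log2 scale; adjusted p = 0.463, edgeR). The β chain gene *Fgb* (chr3:83040141-83049863, minus strand), next to *Fga*, was listed at 0 reads and 0 TPM in each library, where 3 reads would be 0.0823 to 0.111 CPM.

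Liver markers were near 0 in these libraries, with albumin (*Alb*) at most 1.19 CPM and the sum of 9 hepatocyte markers at 5.18 to 11.8 CPM in LPS plus RSBD, 5.78 to 7.13 CPM in LPS and 6.87 to 12.1 CPM in control libraries; 0 of the 5 tested were called in LPS against control. Airway markers were lower in LPS lungs too. Of 7 club and secretory cell markers, 4 fell in LPS against control and 0 were called in LPS plus RSBD against LPS, with sums of 27429 to 35189, 20282 to 30750 and 28567 to 40730 CPM in LPS plus RSBD, LPS and control libraries. Among them *Bpifa1*, an antimicrobial protein of the airway lining, was at 1002, 60.5 and 279 CPM in LPS plus RSBD libraries, 21.0, 32.3 and 14.0 CPM in LPS libraries and 229, 551 and 432 CPM in control libraries. The order of *Bpifa1*, 1 of these 7 markers, over the 3 LPS plus RSBD libraries was that of *Fgg* and *Fga*. The sum of the 7 markers had another order in those libraries, at 28942, 27429 and 35189 CPM, highest in library 3. Library 1, where *Bpifa1*, *Fgg* and *Fga* were highest of the 3, also had the highest sums of adipocyte markers (41.0 CPM) and cardiac muscle markers (481 CPM). No club or secretory marker was at 0 throughout, and the part of airway cells in the fibrinogen result was not tested.

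*F3* (chr3:121723537-121735048, plus strand) encodes tissue factor, the membrane receptor that starts clotting. It was at 50.7, 45.6 and 45.9 CPM in LPS plus RSBD libraries, at 36.6, 35.6 and 42.0 CPM in LPS libraries and at 51.7, 82.6 and 77.4 CPM in control libraries. The 3 groups did not overlap, with LPS plus RSBD between LPS and control, and control library 1 near the LPS plus RSBD values. *F3* fell by 0.89 ± 0.16 on the log2 scale in LPS against control (to 0.540 times; adjusted p = 0.00841, edgeR) in the main setting and in all 16 alternatives. For LPS plus RSBD the log2 fold change was 0.32 ± 0.16 against LPS (adjusted p = 0.578) and -0.57 ± 0.16 against control (adjusted p = 0.0711), the last called by DESeq2 (adjusted p = 0.0130; 0.0130 to 0.204 over the alternatives) and without control library 1. Alveolar type 2 cell markers were not called in LPS against control (0 of 8), with sums of 13539 to 17642, 11894 to 18290 and 13837 to 16824 CPM in LPS plus RSBD, LPS and control libraries, while 4 of 6 ciliated cell markers fell, with sums of 457 to 681, 365 to 528 and 532 to 842 CPM. The part of either cell type in the *F3* result was not tested.

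The factors that tissue factor acts on had positive fold changes in LPS lungs. *F10* (chr8:13037308-13056676, plus strand), the factor X that cleaves prothrombin, was at 8.14, 15.7 and 26.6 CPM in LPS plus RSBD libraries, at 40.7, 30.6 and 23.6 CPM in LPS libraries and at 8.20, 10.2 and 9.39 CPM in control libraries. All LPS libraries were above all control libraries, and the LPS plus RSBD libraries spread from the control level to above LPS library 3. *F10* rose in LPS against control by a log2 fold change of 1.77 ± 0.38 (3.41-fold; adjusted p = 0.0173, edgeR). That call was lost without LPS library 2 or without any 1 of the 3 control libraries (adjusted p up to 0.0679). LPS plus RSBD against LPS gave -0.91 ± 0.37, which did not pass the test, with overlapping libraries. Neutrophil sums, given above, overlapped between LPS and LPS plus RSBD libraries. Sums of 11 monocyte and recruited macrophage markers were higher in each LPS library than in any other library: 1972 to 3116 CPM in LPS plus RSBD, 3447 to 5229 CPM in LPS and 2147 to 2731 CPM in control libraries, with 3 of 11 called higher in LPS against control and none at 0 throughout. Sums of 8 alveolar macrophage markers, a list that shares *Chil3* with the last one, were likewise highest in the LPS libraries. They were 852 to 1696 CPM in LPS plus RSBD, 1777 to 3676 CPM in LPS and 1190 to 1569 CPM in control libraries. Of these 8 markers, 3 were called higher in LPS against control. The part of any of these cells in the *F10* result was not tested. *F7*, the factor VII that binds tissue factor and whose gene neighbours *F10*, was at 15.5, 24.1 and 17.0 CPM in LPS plus RSBD, 12.7, 23.6 and 25.1 CPM in LPS and 11.3, 16.3 and 12.2 CPM in control libraries, with a log2 fold change of 0.63 ± 0.27 (adjusted p = 0.133) for LPS against control, called when LPS library 1 was left out.

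**Figure D4:**
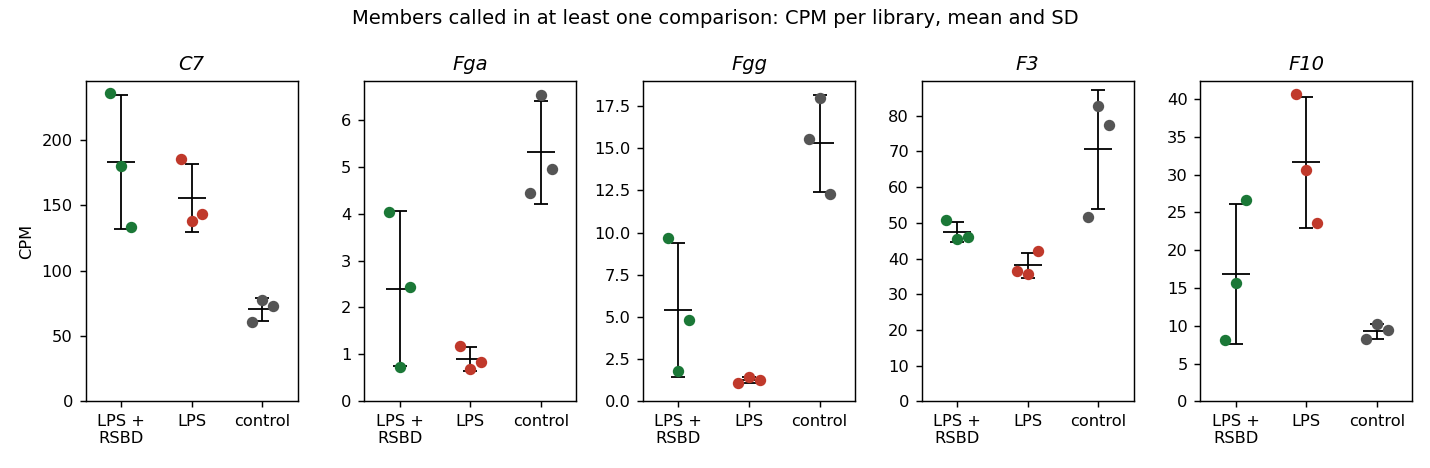
CPM of the 5 genes called in at least 1 comparison, per library (points), with the mean and SD of each group of 3 (black). LPS libraries of *Fgg* sit between 1.11 and 1.47 CPM against 12.3 to 18.0 CPM in control, and those of *C7* between 138 and 186 CPM against 60.4 to 77.9 CPM in control.

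Factor V and factor XIII varied between libraries of one group by a wide margin. *F5*, the cofactor of factor X, was at 22.6, 12.3 and 31.99 CPM in LPS plus RSBD libraries, at 82.8, 35.2 and 24.7 CPM in LPS libraries and at 14.8, 9.04 and 26.9 CPM in control libraries, with a log2 fold change of 1.49 ± 0.54 (adjusted p = 0.0864, edgeR) for LPS against control and -1.09 ± 0.53 (adjusted p = 0.574) for LPS plus RSBD against LPS. LPS library 1 stood apart from the rest. *F13a1*, the A subunit of the enzyme that cross-links fibrin, was at 44.7, 42.5 and 105 CPM in LPS plus RSBD, 173, 85.1 and 61.0 CPM in LPS and 92.8, 62.8 and 85.6 CPM in control libraries. Its groups overlapped in every comparison. Platelet and megakaryocyte markers, 4 of 8 of which rose in LPS against control (*Pf4*, *Ppbp*, *Gp1bb*, *Gp9*), also peaked in LPS library 1, where their sum was 423 CPM. The sums were 126, 81.5 and 186 CPM in LPS plus RSBD libraries, 423, 182 and 157 CPM in LPS libraries and 104, 62.4 and 122 CPM in control libraries, with no marker at 0 throughout, and the part of platelets in the *F5* and *F13a1* values was not tested.

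**Figure D5:**
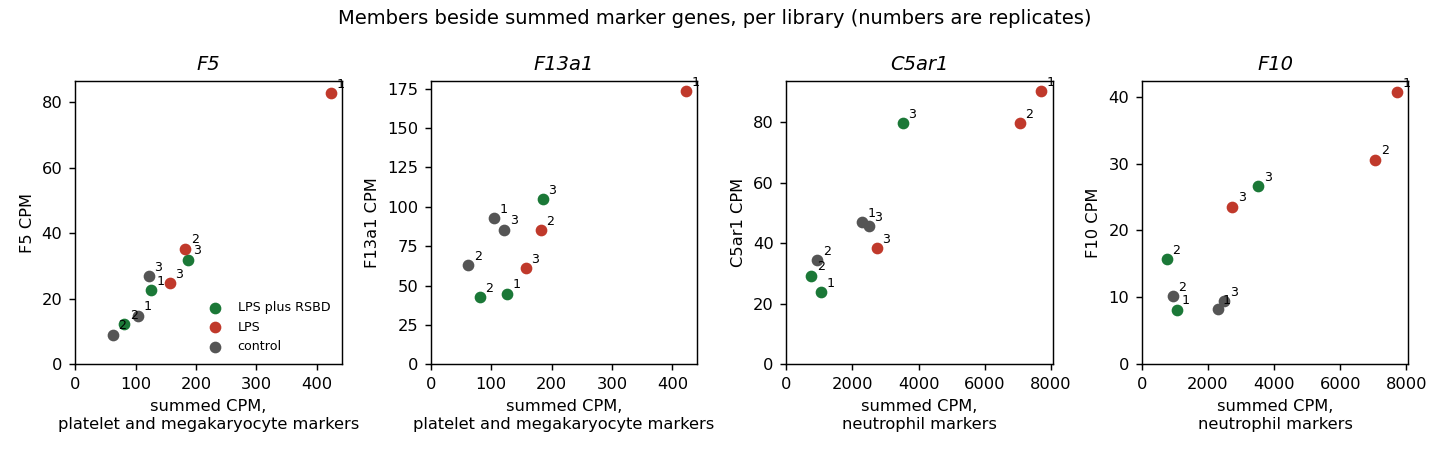
CPM of 4 genes (y axes) beside summed CPM of platelet and megakaryocyte markers or neutrophil markers (x axes) in the 9 libraries; colours are groups and numbers are replicates, and the 4 pairs were chosen after their values were seen. LPS library 1 is highest on both axes of each panel, at 423 CPM of platelet and 7708 CPM of neutrophil markers.

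Anticoagulant genes did not pass the test in any comparison. *Thbd*, which turns thrombin into an activator of protein C, was at 619.9, 694 and 724 CPM in LPS plus RSBD libraries, at 876, 735 and 783 CPM in LPS libraries and at 943, 803 and 633 CPM in control libraries. LPS plus RSBD libraries were all below LPS libraries, with a log2 fold change of -0.23 ± 0.14 (adjusted p = 0.644, edgeR), and both overlapped control. Tissue factor pathway inhibitor (*Tfpi*) ranged from 38.6 to 45.7, 42.4 to 49.2 and 34.5 to 41.9 CPM in LPS plus RSBD, LPS and control libraries, and its log2 fold change for LPS against control was 0.22 ± 0.11 (adjusted p = 0.178). Protein S (*Pros1*), the cofactor of activated protein C, was at 130.4, 132 and 131 CPM in LPS plus RSBD, 146, 119.6 and 134 CPM in LPS and 123, 129.6 and 123 CPM in control libraries. Its log2 fold changes had an SE of 0.08, against a median SE of 0.15 over all genes, and were 0.09 for LPS against control and -0.02 for LPS plus RSBD against LPS. The endothelial protein C receptor *Procr* was low, between 3.23 and 8.29 CPM over all libraries.

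None of the 3 fibrinolysis genes passed the test in any comparison. *Plaur*, the receptor that holds urokinase at the cell surface, was at 37.1, 48.0 and 61.7 CPM in LPS plus RSBD libraries, at 68.1, 80.9 and 57.3 CPM in LPS libraries and at 43.6, 51.2 and 53.9 CPM in control libraries. LPS libraries were all above control libraries, and LPS plus RSBD library 3 lay within the LPS values. The log2 fold change was 0.47 ± 0.18 (adjusted p = 0.103, edgeR) for LPS against control and -0.49 ± 0.18 (adjusted p = 0.473) for LPS plus RSBD against LPS. Tissue plasminogen activator (*Plat*) was at 47.2, 55.3 and 69.2 CPM in LPS plus RSBD, 82.0, 60.5 and 43.9 CPM in LPS and 70.4, 72.4 and 78.2 CPM in control libraries. All 3 LPS plus RSBD libraries were below all 3 control libraries for it, at a log2 fold change of -0.37 ± 0.21 (adjusted p = 0.333). Urokinase (*Plau*) ranged from 6.03 to 14.7, 7.24 to 10.8 and 9.39 to 16.02 CPM in LPS plus RSBD, LPS and control libraries, with overlap in each comparison.

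Further genes of the same systems were counted from wider lists. Of 28 other complement genes tested, 3 rose and 1 fell in LPS against control, and 2 rose in LPS plus RSBD against control. That is 14.3% of them against 17.4% of all genes for LPS against control, and 7.14% against 3.7% for LPS plus RSBD against control. *Itgax* and *Itgb2*, the chains of complement receptor 4, were at log2 fold changes of 1.34 ± 0.22 (adjusted p = 0.00801, edgeR) and 1.06 ± 0.20 (adjusted p = 0.0103) in LPS against control, and both are also carried by leukocytes for adhesion. *C1rl*, a C1r-like protease, rose by 1.00 ± 0.19 (adjusted p = 0.0101), and the mannose-binding lectin *Mbl1* fell by 1.02 ± 0.30 (adjusted p = 0.0438). Of 28 other clotting genes, 2 rose and 1 fell in LPS against control, and 2 rose in LPS plus RSBD against control, which is 10.7% against 17.4% of all genes and 7.14% against 3.7%. The largest of these was *F2rl2* (the thrombin receptor PAR3), at 5.10, 5.13 and 6.11 CPM in LPS plus RSBD libraries, 14.2, 7.09 and 8.47 CPM in LPS libraries and 2.53, 1.85 and 2.21 CPM in control libraries. Its groups did not overlap one another, and it rose by 2.17 ± 0.28 in LPS against control (adjusted p = 0.00304) and by 1.31 ± 0.27 in LPS plus RSBD against control (adjusted p = 0.0339). *Klkb1* (plasma prekallikrein) fell by 1.27 ± 0.31 in LPS against control (adjusted p = 0.0254), and *Fgl2*, a fibrinogen-like protein, rose by 0.54 ± 0.12 in LPS plus RSBD against control (adjusted p = 0.0385). Of 7 other fibrinolysis genes, 1 (14.3%, against 17.4% of all genes) rose in LPS against control: *Serpinb2*, an inhibitor of urokinase, at 2.39 ± 0.63 (adjusted p = 0.0315), from 12 to 127 reads. In LPS plus RSBD against LPS none of these 63 genes was called, at an adjusted p of 0.391 or more.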

How the data were processed

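Lung RNA libraries, 9 in 3 groups of 3, were analysed, grouped by the labels' titles. Per the labels' protocols, mRNA was enriched and strand-specific libraries were sequenced as paired reads on an Illumina NovaSeq. The submitters' processing notes list GRCm38 (mm10) as the genome, and as tools DESeq2 1.38.3, StringTie 2.2.0, HISAT2 2.2.1 and fastp 0.23.2, with no roles; neither the read counter nor the annotation release is stated there. The authors deposited estimated counts per gene (expected counts), whole numbers in every cell, so nothing was rounded, and TPM values of the same genes, which sum to 795528 to 859032 per library. Columns marked RS were taken as LPS plus RSBD, the one group left after the other titles were matched.

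Counts were tested with edgeR 4.0.16 in R 4.3.3 (TMM scaling, filterByExpr with a minimum count of 10 and a minimum total of 15, robust quasi-likelihood fit over all 9 libraries, Benjamini-Hochberg adjusted p under 0.05), leaving 15636 of 21930 genes. CPM values are TMM-scaled. The SE is the absolute log2 fold change divided by the square root of F. TPM served to compare levels between genes. Alternatives were DESeq2 1.42.0, RLE scaling, no low-count filter, limma 3.58.1 on log2(TPM + 1) and log2(TPM + 0.1) for genes at 0.5 TPM or more in 3 libraries, fits of only the groups compared, a replicate block, and leaving out each library. The edgeR step was tested on simulated counts. No 2 libraries were duplicates. A gene was given library by library where it was called in any comparison or was alone in its role, and others by range or count; some further genes were given library by library after their values were seen. Members, lists and tests were chosen with earlier results of these data known.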

Additional observations from a re-analysis of the deposited data

How the results depend on the processing

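In LPS against control, 2723 genes (1374 higher, 1349 lower) were called in the main setting and 786 to 2870 when 1 library was left out. The low counts came without LPS 2 (786), control 2 (892), control 3 (999) or LPS 3 (1631). limma on log2(TPM + 1) split 2035 calls as 701 higher and 1334 lower. Called complement genes were 1, against 2 with limma at either pseudocount (*C7*, *Cd55*) and 1 to 3 with 1 library left out. Called clotting genes were 4, against 2 to 5 with 1 library left out; *F3* and *Fgg* remained without LPS 2 or control 2. In LPS plus RSBD against LPS, 0 genes were called, 153 by DESeq2 (1 clotting gene, *Fgg*), 1 by limma at either pseudocount, 1 in the fit of only the 2 groups, and 0 to 4 with 1 library left out (4 without control 1, 2 without control 2). No gene of the 3 classes was called there when a library was left out. In LPS plus RSBD against control, 578 genes were called, 1699 by DESeq2, 313 by limma on log2(TPM + 1) (98 higher, 215 lower), 307 on log2(TPM + 0.1), and 94 to 961 with 1 library left out (97 without LPS plus RSBD 2, 94 without control 2, 118 without control 3, 240 without control 1, 311 without LPS plus RSBD 1, 342 without LPS 2 and 961 without LPS 1). DESeq2 called 2 complement genes (*C1ra*, *C7*) and 2 clotting genes (*F3*, *Fgg*) there; leaving out a library gave 0 to 4 complement genes and 0 to 1 clotting genes, with 0 complement genes without control 3. Of 1488 log2 fold changes of the 31 genes (3 comparisons, 16 alternatives), 1393 kept direction and side of the threshold, 7 lost a call, 15 gained one, and 73 changed sign, all of them uncalled in both settings. The causes of these differences were not tested, except that leaving out a library leaves fewer samples.

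Equal replicate numbers did not pair the libraries, since their deviations from the group means correlated at -0.215 to 0.122. With the replicate number as a block, 1828 genes were called in LPS against control, 0 in LPS plus RSBD against LPS and 240 in LPS plus RSBD against control. The block changed no call of the 31 genes.

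With 3 libraries a group, *Cfi*, *Fga* and *Fgg* rest on as few as 8, 21 and 30 reads in a library. The SE of *Fgg* in LPS against control was 0.53 and that of *F5*, with 284 to 2229 reads, was 0.54. For *Fgb*, a floor of 3 reads a library was chosen. Counts of 1 and 2 were recorded for other genes, in 1349 and 2989 values, so this floor is not a limit of detection. Why *Fgb* had no reads was not tested. The SEs include the spread between these libraries, while the floor of 3 reads does not.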

Other observations

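Adipsin (*Cfd*, factor D of the alternative pathway, also made by fat cells) was not among the 32 genes and did not pass the test, but its libraries did not overlap between LPS and the other groups. It was at 28.9, 6.45 and 5.31 CPM in LPS plus RSBD libraries, at 3.53, 2.22 and 2.14 CPM in LPS libraries and at 6.69, 14.6 and 9.32 CPM in control libraries. The log2 fold change was 2.37 ± 0.65 for LPS plus RSBD against LPS (adjusted p = 0.391, edgeR) and -1.96 ± 0.64 for LPS against control (adjusted p = 0.0646). The 4 adipocyte markers, of which *Cfd* is 1, summed to 41.0, 9.16 and 7.31 CPM in LPS plus RSBD libraries, 5.87, 4.21 and 2.91 CPM in LPS libraries and 10.49, 19.8 and 11.7 CPM in control libraries, and their part in these values was not tested. The gene was chosen after its values were seen.

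The plasma carrier of factor VIII, *Vwf*, was at 466, 609 and 547 CPM in LPS plus RSBD libraries, at 1297, 723 and 467 CPM in LPS libraries and at 875, 739 and 782 CPM in control libraries. LPS library 1, which had the highest *F5*, *F13a1* and platelet marker levels, was also the highest for *Vwf*, and the gene was chosen after its values were seen.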
